A study of Sus scrofa with 10 samples.

Results

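The 10 genes described here encode the contractile apparatus of smooth muscle and of the peritubular myoid cells of the testis: ACTA2, MYH11, TAGLN, CNN1, MYLK, LMOD1, ACTG2, DES, TPM1 and TPM2. They were chosen by name, with earlier results of these data known. Each of the 10 was found once among the 27376 gene rows of the count table. Pig RNA was measured by QuantSeq, which reads the 3′ end of polyadenylated transcripts, in 10 libraries of 3 groups. The 2 control libraries came from pig testis tissue (their titles carry the mark 5D, which the labels do not explain). The 4 FO libraries came from grafts made of testicular fibroblasts only, and the 4 GF libraries from grafts made of germ cells together with testicular fibroblasts. In both kinds of graft, primary pig cells had been placed with concentrated Matrigel, a basement-membrane gel, in the skin of the back of a SKID mouse (the spelling of the labels), and were taken after 6 months. The design asks whether germ cells influence how the grafted cells rebuild testis tissue. No strain, sex or age is given for the pigs or the hosts. The labels of the control libraries also repeat the cell type and the grafting text of the GF libraries, so the titles were used to group them. Nothing in the labels says that libraries of a group came from separate animals, so p-values measure only the spread between these libraries, which may be technical. The host supplies mouse vessels and skin around a graft, and the labels do not say how mouse reads were handled.

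In smooth muscle a rise in calcium activates calmodulin and then myosin light chain kinase (MYLK), which phosphorylates the light chain of myosin. The smooth muscle myosin heavy chain (MYH11) then pulls on filaments of smooth muscle alpha-actin (ACTA2) and gamma-actin (ACTG2), along which tropomyosins (TPM1, TPM2) lie. Calponin (CNN1) and transgelin (TAGLN) bind these filaments, leiomodin (LMOD1) nucleates them, and desmin (DES) forms intermediate filaments that tie the apparatus together. In the testis these genes are known from the flat myoid cells that wrap each seminiferous tubule and move sperm along it, and from vessel walls. Many of them are driven by serum response factor (SRF) with its cofactor myocardin (MYOCD).

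Library totals ran from 5844944 to 7013911 counts in the control, 4033509 to 4887878 in FO and 2915534 to 4917325 in GF. Levels are given in CPM, a gene's count relative to the library total after TMM scaling, and 3 counts corresponded to 0.452 to 1.03 CPM across libraries. The lowest totals belonged to GF 3 and GF 4, which also lay farthest from the other libraries on the first principal component of all genes (46.3% of the variance). A list of 27 skeletal muscle genes, 24 of them in the table, stood at a sum of 1113 CPM in FO 1 and at 422 CPM in GF 3, while the remaining 8 libraries had 26.6 to 83.5 CPM. MYOG and CAV3 of that list were at 0 in all libraries. The smooth muscle marker genes were present in every library, with the exception of myocardin, which had 0 counts in the control, 2 in FO (both in FO 1) and 10 in GF (9 of them in GF 4).

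ACTA2, MYH11, TAGLN, CNN1 and TPM1 were higher in GF than in FO grafts, and the other 5 genes did not differ beyond the test's threshold. The rise was about 2-fold for TPM1, somewhat more for ACTA2 and TAGLN, and largest in these 5 for MYH11 and CNN1. Values for each follow, with log2 fold changes (± SE) and Benjamini-Hochberg adjusted p-values from edgeR's quasi-likelihood test over all 13782 genes tested. Of those genes, 30.2% passed the threshold of 0.05, 17.4% as higher and 12.7% as lower in GF. Among the 10 contractile genes 5 rose and 0 fell, with a median log2 fold change of 0.90 against -0.02 for all genes tested. The 10 were chosen with earlier results of these data known, so such contrasts with all genes are a description. In these bulk samples fewer cells of a type and less RNA per cell cannot be told apart.

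ACTA2, the smooth muscle alpha-actin (pig Sscrofa11.1, chromosome 14, 100868145 to 100886732), had 96.5, 87.1, 105 and 111 CPM in FO 1 to 4 and 274, 264, 184 and 254 CPM in GF 1 to 4. Its level alone does not tell which cells carried it. Every GF library lay above every FO library, with GF 3 the lowest of its group. The log2 fold change was 1.29 ± 0.21 (adjusted p = 0.00128, edgeR). ACTA2 was also even within FO, where the highest library was 1.28-fold above the lowest.

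MYH11, the myosin heavy chain of differentiated smooth muscle (chromosome 3, 7002667 to 7143093), had 18.4, 20.6, 39.8 and 40.0 CPM in FO 1 to 4. In GF 1 to 4 it had 100.1, 109, 226 and 266 CPM. The groups did not overlap, and within GF the libraries GF 3 and GF 4 were about 2-fold above GF 1 and GF 2. The log2 fold change was 2.56 ± 0.40 (adjusted p = 0.000966, edgeR). Without GF 3 and GF 4 it was 1.77 ± 0.29 (adjusted p = 0.000623), so the size, but not the call, depended on these libraries. Clusterin (CLU), an abundant Sertoli cell transcript, was likewise higher in GF 3 and GF 4 (39050 and 43850 CPM) than in GF 1 and GF 2 (13670 and 15660 CPM). CLU made up most of the sum of the Sertoli list, which was 14970, 16900, 40430 and 45750 CPM in GF 1 to 4. Of that list's 7 tested genes, 4 rose and 1, WT1, fell in GF against FO (WT1 log2 -1.13, adjusted p = 0.00377, edgeR). The part of these libraries' other RNA in the level of MYH11 was not tested.

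TAGLN, an actin-binding protein of smooth muscle (chromosome 9, 44561756 to 44567385), had 45.1, 64.5, 81.9 and 92.4 CPM in FO 1 to 4 and 159, 162, 205 and 203 CPM in GF 1 to 4. All GF libraries were above all FO libraries, and the spread within GF (1.29-fold) was narrower than within FO (2.05-fold). The log2 fold change was 1.36 ± 0.25 (adjusted p = 0.00243, edgeR).

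CNN1, the calponin that inhibits myosin ATPase on the thin filament (chromosome 2, 70183370 to 70190756), was low. It had 5, 2, 12 and 21 counts in FO 1 to 4, which is 1.39, 0.434, 2.51 and 4.44 CPM, and 54, 103, 47 and 17 counts in GF 1 to 4, which is 11.6, 18.6, 16.2 and 5.87 CPM. FO 2 was below the level of 3 counts, and GF 4 was the GF library nearest to FO. The log2 fold change was 2.55 ± 0.64 (adjusted p = 0.0115, edgeR). It was 3.15 without FO 4 (adjusted p = 0.0123), and the call ended when FO 1 and GF 3, whose skeletal muscle sums were highest, were both left out (log2 2.22, adjusted p = 0.0849).

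TPM1, a tropomyosin used in all muscle types (chromosome 1, 108986981 to 109016090), had 463, 443, 476 and 414 CPM in FO 1 to 4 and 609, 685, 926 and 1226 CPM in GF 1 to 4. Its FO libraries were close together, while GF 4 was 2.01-fold above GF 1. The log2 fold change was 0.94 ± 0.24 (adjusted p = 0.0126, edgeR). Without FO 1 and GF 3 it was 0.86 and no longer passed (adjusted p = 0.0774). QuantSeq counts do not separate the muscle and non-muscle isoforms that TPM1, TPM2 and MYLK are each known to make.

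**Figure D1:**
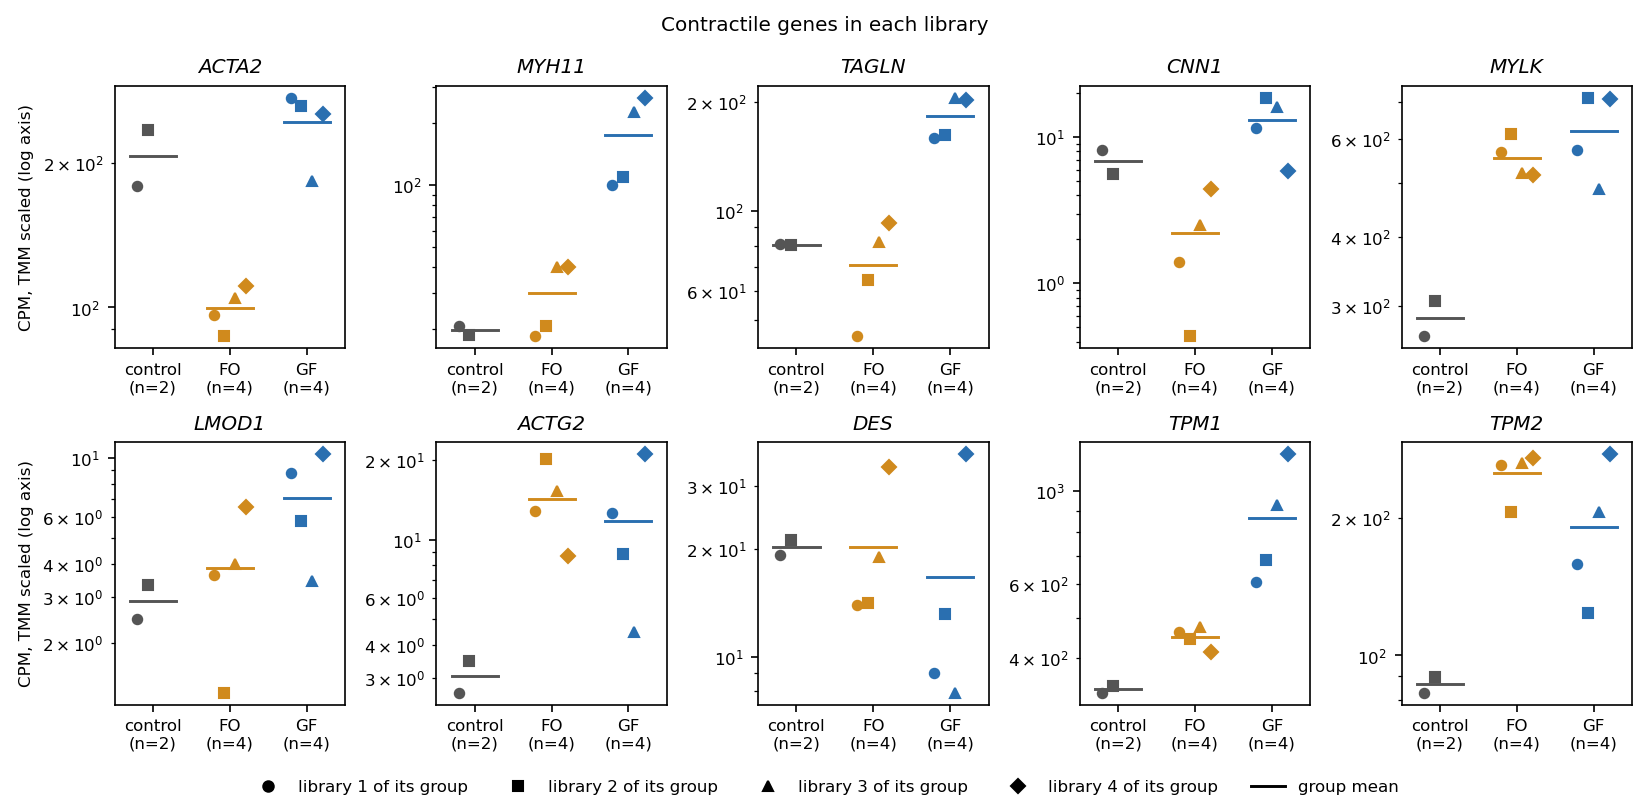
Level of each of the 10 contractile genes in CPM (log axis) in every library of control testis (2), FO grafts (4) and GF grafts (4), with points for libraries and lines for group means. ACTA2, MYH11, TAGLN, CNN1 and TPM1 show GF points above all FO points, while MYLK, LMOD1, ACTG2, DES and TPM2 show overlapping graft groups.

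The other 5 contractile genes had overlapping graft groups, whereas the groups of all 5 genes above did not overlap (36% of all genes tested did not, 17.8% being higher and 18.2% lower in GF). MYLK, the kinase that starts contraction (chromosome 13, 136509878 to 136809674), had 569, 612, 522 and 517 CPM in FO 1 to 4 and 575, 712, 488 and 710.1 CPM in GF 1 to 4. GF 3 lay below all FO libraries and GF 2 and GF 4 above them, and the log2 difference was 0.16 ± 0.20 (adjusted p = 0.570, edgeR). TPM2 (chromosome 1, 236402249 to 236410390), which is usually a partner of TPM1 in the thin filament, had 261, 206, 264 and 271 CPM in FO 1 to 4 and 159, 124, 206 and 276 CPM in GF 1 to 4. GF 4 alone was as high as the highest FO libraries. The log2 difference was -0.39 ± 0.26 (adjusted p = 0.274, edgeR), and without GF 3 and GF 4 TPM2 fell by 0.87 (adjusted p = 0.00328).

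ACTG2, the actin of visceral smooth muscle (chromosome 3, 69097366 to 69121542), had 12.8, 20.2, 15.3 and 8.67 CPM in FO 1 to 4 and 12.6, 8.83, 4.48 and 21.1 CPM in GF 1 to 4. Its GF values ran from the lowest to the highest of all 8 grafts, and the log2 difference was -0.28 ± 0.47 (adjusted p = 0.684, edgeR). LMOD1, which nucleates actin filaments in smooth muscle (chromosome 10, 24165293 to 24194823), had 3.62, 1.30, 3.98 and 6.56 CPM in FO 1 to 4 and 8.77, 5.77, 3.45 and 10.3 CPM in GF 1 to 4. GF 1 and GF 4 were above all FO libraries but GF 3 was below 3 of them, and the log2 difference was 0.87 ± 0.58 (adjusted p = 0.279, edgeR). LMOD1 rested on 6 to 41 counts a graft library.

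DES, the intermediate filament protein of all muscle (chromosome 15, 121428539 to 121435426), had 13.9, 14.1, 19.1 and 34.1 CPM in FO 1 to 4 and 8.98, 13.2, 7.93 and 36.9 CPM in GF 1 to 4. The library numbered 4 was the highest of both groups, and the log2 difference was -0.29 ± 0.51 (adjusted p = 0.699, edgeR). Without FO 4 it was 0.08 (adjusted p = 0.927). DES is also a skeletal muscle gene. In the libraries with the highest skeletal muscle sums, FO 1 and GF 3, it was at 13.9 and 7.93 CPM, close to the next library of each group (14.1 and 8.98 CPM), and the part of skeletal muscle RNA in its level was not tested.

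Set against control testis, the contractile genes formed 3 patterns by their calls in the main fit. MYH11, TAGLN and TPM1 rose in GF and did not pass in FO, MYLK, ACTG2 and TPM2 rose in both grafts, and ACTA2 fell in FO while its GF level did not differ from control beyond the threshold. CNN1, LMOD1 and DES passed in neither comparison. In FO, TPM1 and CNN1 passed in some other fits, given below, so the patterns depend on the fit. Both comparisons use the same 2 control libraries, and most calls ended when either was left out.

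In GF against control, 6 of the 10 genes rose and 0 fell, beside 25.8% of all 15877 genes tested (14% higher). Their median log2 fold change was 1.16 against 0.03 for all genes. MYH11 had 20.6 and 18.7 CPM in control 1 and 2, below all GF libraries, with a log2 fold change of 3.15 ± 0.51 (adjusted p = 0.000814, edgeR). TAGLN had 81.0 and 80.2 CPM in the control and rose by 1.17 ± 0.30 (adjusted p = 0.0123). TPM1 had 331 and 344 CPM in the control and rose by 1.35 ± 0.29 (adjusted p = 0.00497). For these 3 genes no GF library reached down to the control.

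MYLK had 265 and 307 CPM in the control and rose in GF by 1.12 ± 0.24 on the log2 scale (adjusted p = 0.00523, edgeR). TPM2 had 82.9 and 89.9 CPM in the control and rose by 1.14 ± 0.31 (adjusted p = 0.0170). ACTG2 had 2.63 and 3.47 CPM in the control, from 16 and 23 counts, and rose by 1.93 ± 0.63 (adjusted p = 0.0370). The labels do not link control numbers to graft numbers, so a block on the library number has no known basis here. With that block the calls of TPM2 (0.84, adjusted p = 0.0522) and ACTG2 (1.92, adjusted p = 0.0689) ended, leaving 4 genes called. They also ended with GF and control alone in the fit (adjusted p = 0.0696 and 0.118). The call of ACTG2 also ended without FO 1, FO 2, FO 3 or GF 4 (adjusted p from 0.0512 to 0.0576).

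The 4 genes that did not pass in GF against control were ACTA2, with 179 and 235 CPM in the control and a log2 difference of 0.24 ± 0.25 (adjusted p = 0.511, edgeR), CNN1, LMOD1 and DES. CNN1 had 8.23 and 5.58 CPM in the control, and its log2 difference was 0.92 ± 0.71 (adjusted p = 0.360). LMOD1 had 2.47 and 3.32 CPM in the control, below all GF libraries, with a log2 difference of 1.28 ± 0.72 (adjusted p = 0.209). DES had 19.3 and 21.3 CPM in the control, inside the GF range, with a log2 difference of -0.29 ± 0.57 (adjusted p = 0.744). In 7 of the 10 genes all GF libraries were above both control libraries and in 0 they were below, beside 47.2% of all genes whose groups did not overlap (21.9% higher, 25.3% lower).

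In FO against control, 3 genes rose and 1 fell, beside 18.7% of all genes tested (8.12% higher, 10.6% lower), and the median log2 fold change of the 10 was 0.41 against -0.04 for all genes. ACTA2 was the gene that fell, by 1.05 ± 0.24 on the log2 scale (adjusted p = 0.00825, edgeR), and its highest FO library, 111 CPM, was below the lower control library. TPM2 rose by 1.53 ± 0.32 (adjusted p = 0.00490), ACTG2 by 2.21 ± 0.63 (adjusted p = 0.0262) and MYLK by 0.96 ± 0.24 (adjusted p = 0.0147). All FO libraries of these 3 genes were above both control libraries. Without FO 1, FO 2 or FO 3 the call of ACTG2 ended (adjusted p from 0.0508 to 0.0709).

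MYH11 did not pass in FO against control (0.60 ± 0.45, adjusted p = 0.399, edgeR): FO 3 and FO 4 were above the control and FO 1 and FO 2 level with it. TAGLN (-0.18 ± 0.28, adjusted p = 0.714), LMOD1 (0.41, adjusted p = 0.740) and DES (0.00 ± 0.57, adjusted p = 1) had FO values on both sides of the control. CNN1 was below both control libraries in all FO libraries but did not pass (-1.63 ± 0.69, adjusted p = 0.121), and it passed without GF 3 and GF 4 (-1.59, adjusted p = 0.0295) and with FO and control alone in the fit (0.0312). TPM1 was above both in all FO libraries and passed without GF 3 and GF 4 (0.41 ± 0.28, adjusted p = 0.346, and 0.44, adjusted p = 0.0358). In 6 of the 10 genes the FO and control libraries did not overlap, 4 higher and 2 lower in FO, beside 58.7% of all genes (26.7% higher, 32% lower).

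Leaving out 1 control library ended most of these calls. Without control 1, 1 gene stayed called in GF (MYH11) and 1 in FO (ACTA2), and without control 2, 1 in GF (MYH11) and 0 in FO. Each of these fits held 1 control library, so its estimate of spread came from the graft libraries. Among the calls lost were TAGLN (adjusted p = 0.132), TPM1 (0.0704) and MYLK (0.0625) in GF without control 2, and ACTA2 in FO (-0.85, adjusted p = 0.162). The fold changes of these genes kept their direction.

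**Figure D2:**
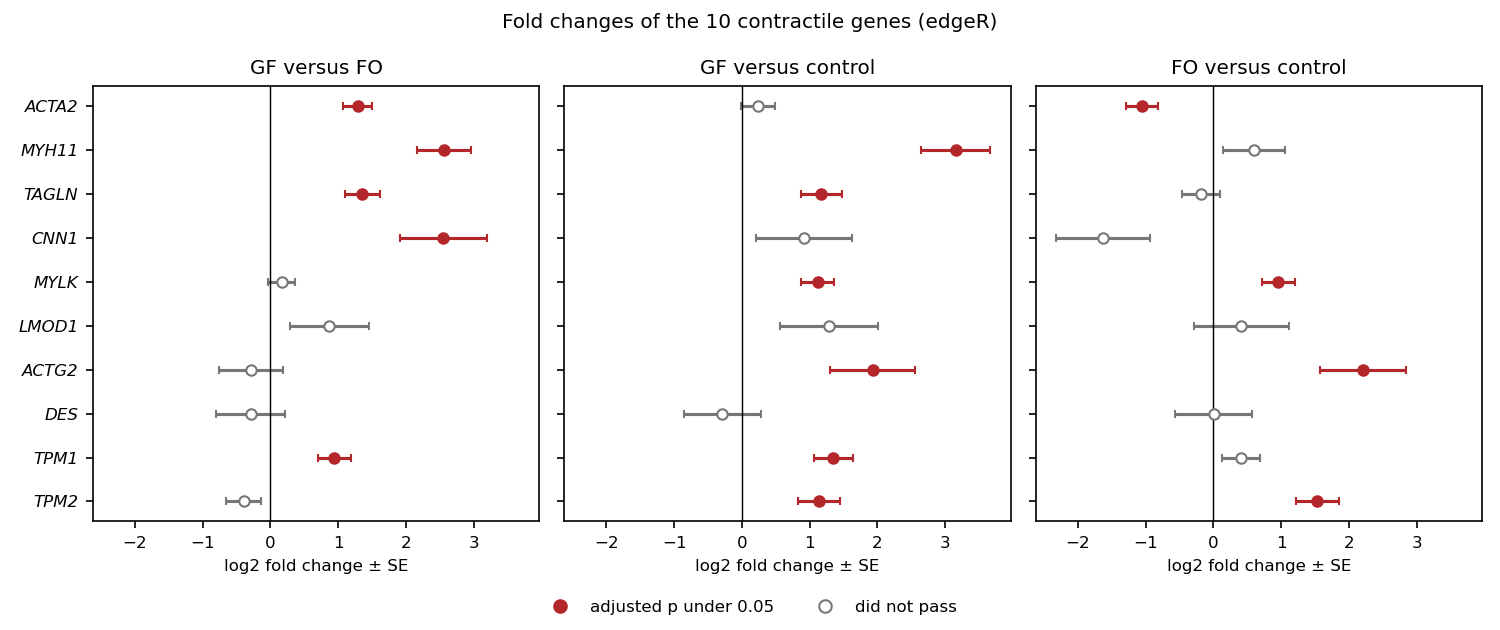
Log2 fold change of each contractile gene with its standard error in GF against FO, GF against control and FO against control, with filled points for an adjusted p under 0.05 (edgeR). MYH11 lies highest in both GF comparisons, and ACTA2 is the only filled point below 0, in FO against control (-1.05).

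Because the genes moved unequally, their counts relative to one another differed between the groups. These ratios were chosen after the values had been seen and are given as a description, comparing libraries and not the abundance of different genes. TPM1 counts per TPM2 count were 4.00 and 3.83 in the control, 1.77, 2.16, 1.80 and 1.53 in FO 1 to 4 and 3.84, 5.54, 4.49 and 4.45 in GF 1 to 4. The FO libraries thus lay below all others, with a mean of 1.81 ± 0.258 (SD, n = 4) against 4.58 ± 0.704 (SD, n = 4) in GF, and GF 1 was level with the control.

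MYLK counts per ACTA2 count were 1.48 and 1.31 in the control, 5.89, 7.03, 4.98 and 4.65 in FO and 2.10, 2.70, 2.66 and 2.80 in GF, so that the 3 groups were separate and GF lay between the other two. ACTG2 counts per ACTA2 count were 0.0147 and 0.0148 in the control, 0.133, 0.232, 0.146 and 0.0781 in FO and 0.0461, 0.0335, 0.0244 and 0.0830 in GF. GF 4 overlapped FO there, and both grafts were above the control. MYH11 counts per ACTA2 count were 0.115 and 0.0796 in the control, 0.190, 0.237, 0.379 and 0.360 in FO and 0.366, 0.415, 1.23 and 1.05 in GF. Here GF 1 fell within the FO range and GF 3 and GF 4 stood far above it.

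Counts were also set against non-muscle partners, which most cell types express. MYH11 counts per count of MYH10, a non-muscle myosin heavy chain, were 0.132 and 0.103 in the control, 0.185, 0.195, 0.373 and 0.340 in FO and 1.25, 2.04, 1.4 and 1.75 in GF. MYH10 itself differed among the GF libraries, with 80.0, 53.5, 162 and 152 CPM in GF 1 to 4 beside 99.3 to 118 CPM in FO, so this ratio does not show the gap between GF 1 and 2 and GF 3 and 4 that MYH11 has. ACTA2 counts per count of ACTG1, a non-muscle actin, were 0.133 and 0.150 in the control, 0.0626, 0.0551, 0.0814 and 0.0864 in FO and 0.209, 0.203, 0.134 and 0.210 in GF. FO was below the control in that ratio and GF 3 was level with it. Actin genes are near-identical in their coding sequence, and how reads shared between them were counted is not given in the sources used here.

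**Figure D3:**
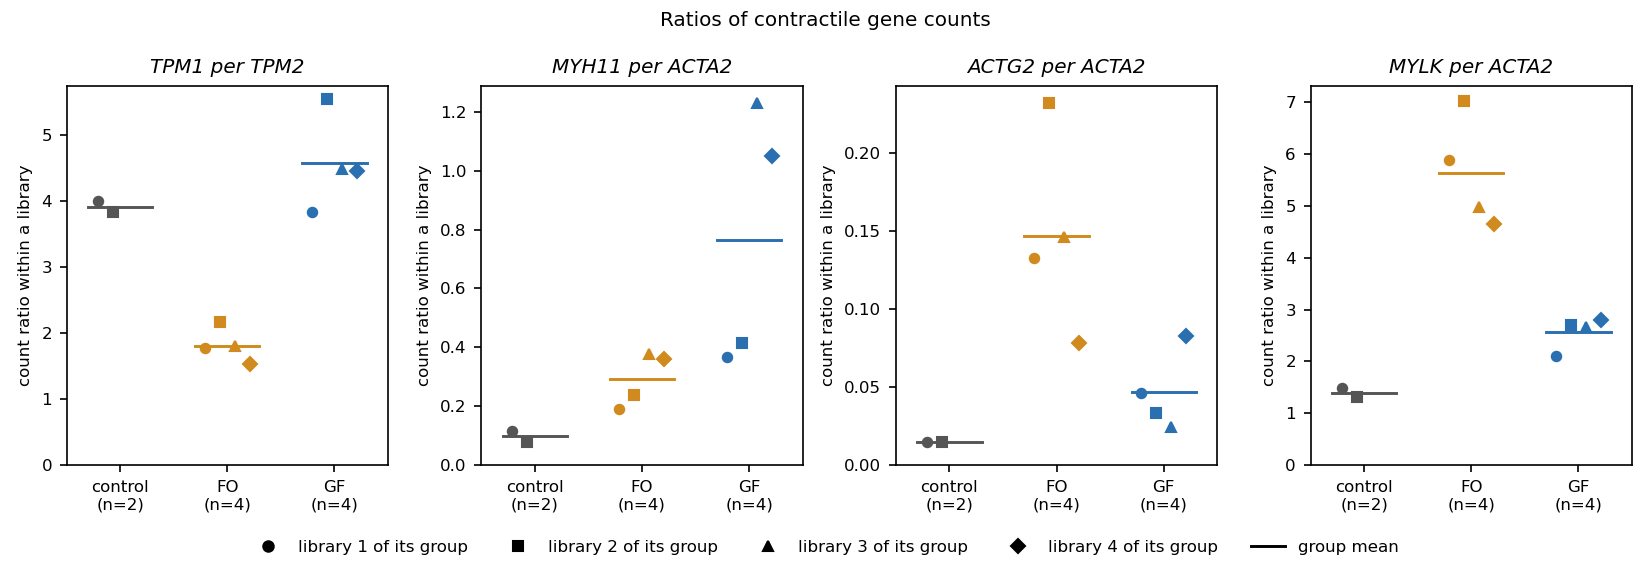
Ratios of counts between contractile genes within each library (linear axes from 0), with points for the libraries of control testis (2), FO grafts (4) and GF grafts (4) and lines for group means. TPM1 per TPM2 is lowest in the 4 FO libraries (1.53 to 2.16), and MYLK per ACTA2 is highest there (4.65 to 7.03).

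The genes whose pattern over the 10 libraries was most like that of ACTA2 were DNAJA4, RGMA, BCKDK, TRAP1 and KLF16. Likeness was the root mean square difference of log2 CPM after centring each gene, among 7407 named genes with an average log2 CPM of at least 4, and these genes differed from ACTA2 by 0.161 to 0.224. DNAJA4, a co-chaperone, had 29.8 and 34.8 CPM in the control, 14.2 to 17.8 in FO and 30.3 to 44.1 in GF. TAGLN came at rank 555, TPM1 at 1813, MYLK at 3295, DES at 4906, TPM2 at 5786 and MYH11 at 6192. For MYH11 the nearest genes were FAAH, UAP1L1, CIDEA, UBL7 and TAOK2, at 0.267 to 0.383. FAAH, which breaks down anandamide, had 19.1 and 13.7 CPM in the control, 11.13 to 23.0 in FO, and 57.3, 54.6, 151 and 170.1 in GF 1 to 4. TAGLN stood at rank 222 and TPM1 at 423 in that order. Neither list of 5 held another of the contractile genes, and CNN1, LMOD1 and ACTG2 were too low to be ranked.

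Of 25 further structural genes of the contractile apparatus tested, 3 rose, 6 fell and 16 did not pass in GF against FO, with a median log2 fold change of -0.08. The share called was 36%, near the 30.2% of all genes tested (17.4% higher, 12.7% lower), against which the counts of the lists that follow are also to be read. Of the relatives of CNN1, the calponins CNN2 (58.5 ± 17.3 CPM in FO and 23.8 ± 12.2 in GF, SD, n = 4 each; log2 -1.30, adjusted p = 0.0183, edgeR) and CNN3 (-1.87, adjusted p = 0.0206) fell. FLNC, a filamin that cross-links actin, fell by 1.47 (adjusted p = 0.00729), and PDLIM3, an actinin-associated LIM protein, by 1.61 (adjusted p = 0.0204). The control means of FLNC and PDLIM3 were 5.66 and 12.6 CPM, below their means in GF (9.56 and 24.7) and FO (26.6 and 76.0). TAGLN2, a relative of TAGLN found in many cells, rose by 0.95 (adjusted p = 0.00902). MYL9, the light chain that MYLK phosphorylates, and PDLIM7 also rose, by 1.418 (adjusted p = 0.0360) and 1.45 (adjusted p = 0.0348), but on GF 3 and GF 4: MYL9 had 86.9, 59.5, 287 and 277 CPM in GF 1 to 4, and without both the log2 fold changes were 0.09 and 0.25. Both calls also ended without FO 1, FO 2, FO 3, GF 3 or GF 4 singly (adjusted p from 0.0508 to 0.119), and that of MYL9 without FO 4 (0.0743). CNN3, MYL9 and PDLIM7 were named after their values were seen. The calls of CNN2, CNN3 and PDLIM3 ended without FO 1 (adjusted p = 0.0604, 0.0640 and 0.0746), that of CNN2 without FO 4 (0.0594) and those of CNN2, CNN3 and TAGLN2 without FO 1 and GF 3 together (0.101, 0.0719 and 0.0598). Without GF 3 and GF 4, CNN3 was at -1.18, and without GF 1 at -2.48.

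Among 17 tested genes that set the strength of contraction, 0 rose, 3 fell and 14 did not pass, with a median of -0.41. The share called, 17.6%, was below the 30.2% of all genes. ROCK2, a kinase that keeps the myosin light chain phosphorylated, had 299, 259, 220.2 and 208 CPM in FO 1 to 4 and 140, 112, 108 and 93.5 CPM in GF 1 to 4, with no overlap and a log2 fold change of -1.12 ± 0.22 (adjusted p = 0.00304, edgeR). Its control mean was 329 CPM, above the means of both grafts. ROCK1 fell by 0.85 (adjusted p = 0.00799). RHOA fell by 0.84 (adjusted p = 0.0388), a call that ended without any 1 of FO 1 to 4, GF 3 or GF 4 (adjusted p from 0.0591 to 0.102) and with scaling to total counts (0.116). CACNA1C, the calcium channel of smooth muscle, stood at 4.53 ± 1.73 CPM in GF and 1.43 ± 0.467 in FO (SD, n = 4 each) with no overlap, and did not pass (log2 1.62, adjusted p = 0.0564, edgeR), though it passed in DESeq2 (0.0295) and with scaling to total counts (0.0444).

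Of 10 tested ligands and receptors of contraction, 2 rose, 3 fell and 5 did not pass. NPR1, the natriuretic peptide receptor that relaxes smooth muscle, fell from 20.5 to 34.3 CPM in FO to 1.38 to 5.35 CPM in GF (log2 -3.21 ± 0.47, adjusted p = 0.000703, edgeR). Its control mean was 2.56 CPM, beside 26.6 in FO and 2.75 in GF, so that FO was the group apart. EDNRB, an endothelin receptor, fell by 2.60 (adjusted p = 0.0125), and it was at -3.40 without GF 1 and at -2.00 without GF 3 and GF 4. AGTR1, the angiotensin receptor, fell by 2.19 (adjusted p = 0.0429), with -3.09 without GF 1 and -1.497 without GF 3 and GF 4. Its call ended without any 1 FO library, GF 2 or GF 3 (adjusted p from 0.0673 to 0.128), and it was named after its values were seen. CHRM3, the muscarinic receptor that triggers contraction, rose by 2.53 ± 0.54 (adjusted p = 0.00507), from 1.27 to 4.34 CPM in FO to 11.6, 8.83, 29.6 and 26.2 CPM in GF 1 to 4, and was at 1.60 without GF 3 and GF 4. ADRA1A, an adrenergic receptor, rose by 2.32 (adjusted p = 0.0183), and that call ended with the library number as a block (0.0518), without FO 1 (0.0629) and without FO 4 (0.0572).

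Of 12 tested transcription factors and cofactors of the smooth muscle genes, 1 rose, 4 fell and 7 did not pass, with a median of -0.71. SRF itself had 105, 167, 129 and 155 CPM in FO 1 to 4 and 134, 75.0, 50.7 and 64.9 CPM in GF 1 to 4. GF 1 was inside the FO range and the other 3 below it, and the log2 difference of -0.78 ± 0.30 did not pass (adjusted p = 0.0722, edgeR), though it passed in DESeq2 (0.0367) and without GF 1 (0.00574). KLF4, a repressor of smooth muscle genes, fell from 38.5 to 45.2 CPM in FO to 3.45 to 18.6 CPM in GF (-2.02 ± 0.46, adjusted p = 0.00657), and was at -1.43 without GF 3 and GF 4. The control mean of KLF4 was 3.58 CPM, beside 40.8 in FO and 9.72 in GF. ELK4, an ETS factor that binds with SRF, fell by 1.21 (adjusted p = 0.00468) and TEAD1 by 0.94 (adjusted p = 0.00909), the latter call ending without FO 1 and GF 3 (0.0506). FHL2, a LIM cofactor, fell by 1.02 (adjusted p = 0.0400), and its call ended without FO 1, FO 4, GF 1, GF 3 or GF 4 (adjusted p from 0.0600 to 0.141) and with the block (0.0745). The factor that rose, named after its values were seen, was MKL2 (myocardin-related transcription factor B), by 0.71 (adjusted p = 0.0414). That call ended with the block (0.0530) and without any 1 FO library, GF 2 or GF 3 (adjusted p from 0.0745 to 0.116).

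Among 12 genes of TGF-beta signalling and related inputs to the smooth muscle programme, 0 rose, 2 fell and 10 did not pass, a share called of 16.7% beside 30.2% of all genes. TGFB2 had 372, 229, 227 and 231 CPM in FO 1 to 4 and 123, 164, 118 and 129 CPM in GF 1 to 4, with a log2 fold change of -0.99 ± 0.24 (adjusted p = 0.00856, edgeR). The receptor TGFBR2 fell by 1.28 (adjusted p = 0.0186), a call that ended without FO 1 (0.0651) and without FO 1 and GF 3 (0.0823). TGFBR1 stood at -1.23 (adjusted p = 0.0510), but passed with the library number as a block (-1.37, adjusted p = 0.0237) and in DESeq2 (0.0223). SMAD3 stood at -0.73 (adjusted p = 0.0875). Of 8 non-muscle actin, myosin and tropomyosin genes, 7 did not pass and 1 fell. TPM4 fell by 1.402 ± 0.31 (adjusted p = 0.00634). TPM4 had 373, 392, 316 and 329 CPM in FO 1 to 4 and 236, 117, 97.2 and 82.1 CPM in GF 1 to 4, so that 1 tropomyosin of the 4 measured rose and 1 fell.

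**Figure D4:**
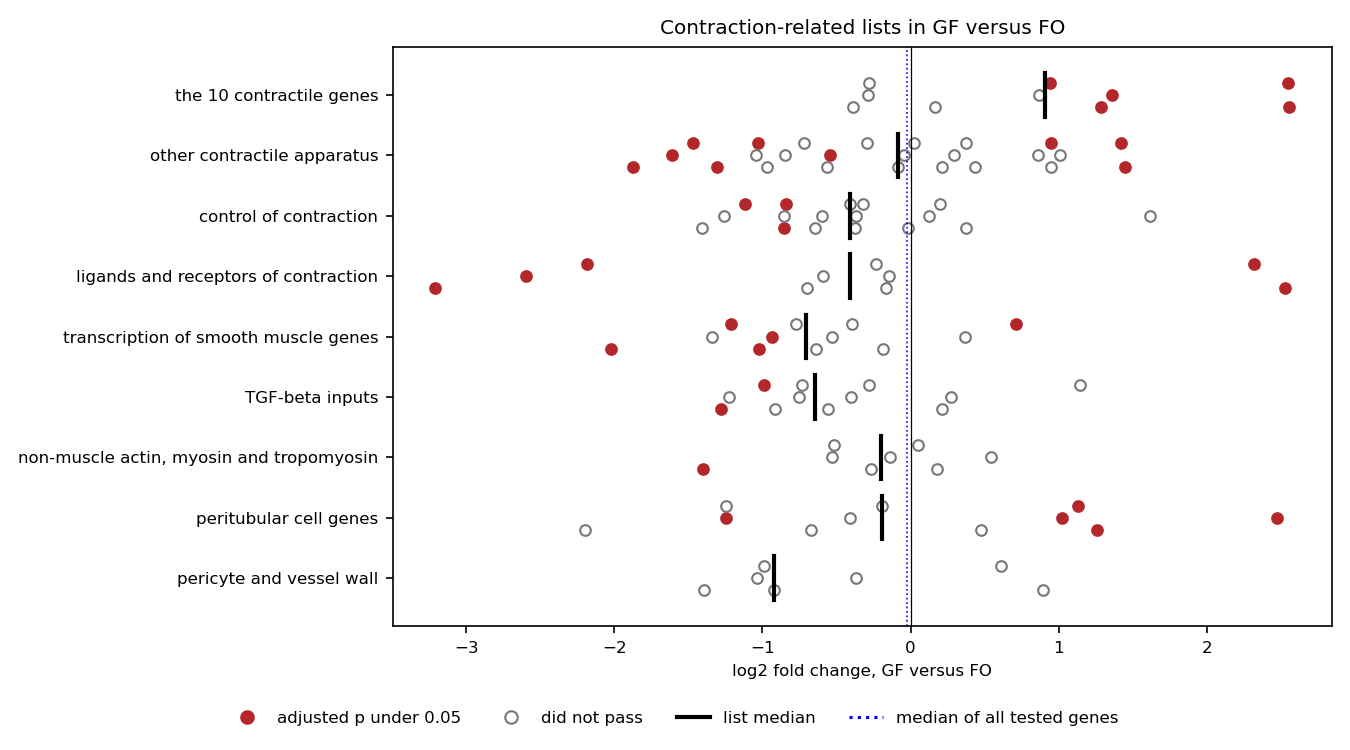
Log2 fold change in GF against FO of every tested gene in the lists on contraction, its control and related cells, with filled points for an adjusted p under 0.05 (edgeR). Each list's median is marked, with a dotted line for the median of all tested genes (-0.02). The median of the 10 contractile genes is 0.90, and the other 8 lists drawn have medians below 0.

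Of 11 tested genes known from peritubular cells, 4 rose, 1 fell and 6 did not pass, which is 45.5% called beside 30.2% of all genes, and their median was -0.19. PTCH1, a hedgehog receptor that is also a target of that pathway, had 27.5, 22.8, 23.5 and 25.0 CPM in FO 1 to 4 and 66.7, 48.6, 57.5 and 43.5 CPM in GF 1 to 4. The groups did not overlap, and PTCH1 rose by 1.13 ± 0.24 (adjusted p = 0.00478, edgeR). GLI1, a hedgehog pathway gene of the same list, had means of 7.52 CPM in FO and 6.54 CPM in GF. It did not pass (log2 -0.19, adjusted p = 0.810, edgeR), and hedgehog activity was not tested. ALPL, named after its values were seen, rose by 1.25 (adjusted p = 0.0329), a call that ended without FO 1, FO 2, FO 4 or GF 1 (adjusted p from 0.0899 to 0.120). PDGFRA, a receptor of fibroblast-like cells, fell by 1.25 (adjusted p = 0.0167), and that call ended without FO 1 (0.0612) and without FO 1 and GF 3 (0.0874).

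Markers of other cells that could carry contractile genes were measured beside them. The pericyte and vessel wall list, 10 genes in the table, summed to 248 and 291 CPM in the control, 72.3 to 151 CPM in FO and 69.0 to 90.7 CPM in GF, and of its 7 tested genes 0 passed in GF against FO (edgeR). RGS5, a pericyte marker, had 5.56 to 19.0 CPM in FO and 3.60 to 8.13 CPM in GF, and NOTCH3, of the arterial wall, 11.07 to 42.1 CPM and 6.31 to 17.2 CPM. PDGFRB, MCAM and KCNJ8 also had lower means in GF, and the median log2 fold change of the list was -0.92. ITGA8 (0.90, adjusted p = 0.0803, edgeR) and CSPG4 (0.61, adjusted p = 0.470, edgeR) had higher means in GF. ITGA8 passed in DESeq2 (adjusted p = 0.0471). The endothelial list summed to 361 and 381 CPM in the control, 149 to 323 CPM in FO and 64.5 to 108 CPM in GF, where 2 of 10 fell. The fibroblast list summed to 4249 and 4270 CPM in the control, 3933 to 5835 CPM in FO and 1474 to 2617 CPM in GF. In GF against FO 5 of its 8 genes fell and 1 rose. Cardiac muscle genes summed to 155.5 and 162 CPM in the control and to 37.0 to 55.9 CPM in FO. In GF 1 to 4 they summed to 84.7, 71.5, 420 and 377 CPM. TNNI3 alone was 417 and 365 CPM in GF 3 and GF 4, and its mean was 106.5 CPM in the control. The 3 epithelial basal and myoepithelial genes in the table summed to at most 1.497 CPM in any library. What part these cells had in the levels of the contractile genes was not tested.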

How the data were processed

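The deposited count table holds whole-number gene counts per library. The labels' protocols give Trizol RNA and a QuantSeq 3′ kit, and the submitters' processing notes name Sscrofa11.1 and DESeq2 1.42.0. The aligner, the counting program and its strand setting are, in the sources used here, not given. Gene positions are RefSeq's, on Sscrofa11.1.

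GF was tested against FO in the 8 graft libraries, and each graft group against control in 1 fit of all 10, with edgeR 4.0.16 (R 4.3.3): filterByExpr with a minimum count of 10, TMM, robust quasi-likelihood F test, Benjamini-Hochberg over all tested genes, threshold 0.05. Likeness used a prior count of 2. Named were the 10 contractile genes, the 4 genes of lowest p in each other list in GF against FO, and a few fixed markers; some of these are not reported here. Members and lists were chosen with earlier results of these data known. The fits were also run on simulated counts with the same spread in all groups. The real groups differed in spread, so nothing about these calls is concluded from that run. Alternatives were DESeq2, RLE and total-count scaling, no filter, a replicate block, other libraries in the fit and left-out libraries.

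Deviations from the group mean were weakly correlated between same-numbered GF and FO libraries (r = 0.103, 0.256, 0.116 and 0.112). Only 2 of the 4 GF libraries matched their own number best, while GF 1 was most like FO 2 and GF 4 most like FO 3. What r unrelated libraries would give was not tested. These values therefore do not establish a pairing, and the labels state none. The main fits held the group only, and the block on library number was run as an alternative. Control libraries were not examined for such a match.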

Additional observations from a re-analysis of the deposited data

Results flagged for a closer look

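Within groups of 4 libraries, 6 values stood apart from the others of their group by Dixon's test at the 95% level, which chance passes in about 1 in 20 groups. The test was run in FO and in GF on each of the 10 contractile genes, the ratios above and the sums of 15 lists. Some passes by chance are therefore to be expected, and the ratios were chosen after their values were seen. TPM2 was at 206 CPM in FO 2, against 261 to 271 CPM in the other FO libraries. The ratio of ACTA2 to ACTG1 counts was 0.134 in GF 3, against 0.203 to 0.210 in the other GF libraries. The skeletal muscle list summed to 1110 CPM in FO 1, against 26.6 to 35.2 CPM in the other FO libraries, and GF 3 reached 422 CPM where GF 1, GF 2 and GF 4 had 27.8 to 83.5 CPM. The skeletal alpha-actin ACTA1 was at 228 CPM in FO 1 and 72.4 CPM in GF 3. Of the 7 genes of that list tested in GF against FO, 1 passed. This was TNNT1, with means of 3.69 CPM in FO and 36.3 CPM in GF and no overlap (log2 3.27, adjusted p = 0.00321, edgeR). Without GF 3 and GF 4 its log2 fold change was 1.83. The endothelial list summed to 64.5 CPM in GF 2, against 104 to 108 CPM, and the fibroblast list to 2620 CPM in GF 1, against 1470 to 1600 CPM. ACTA2, MYH11 and TAGLN kept their calls in GF against FO without FO 1 and GF 3, while CNN1 and TPM1 did not.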

How the results depend on the processing

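Across the alternatives, 479 of 520 fold changes of the contractile genes kept their direction and their side of the threshold (156 of 160 in GF against FO, 162 of 180 in GF against control, 161 of 180 in FO against control). Fold changes that did not pass in either fit count as kept, so these totals do not show how often a call held. Most calls against control ended when either control library was left out. Without FO 1 and GF 3 together, 3 contractile genes were called in GF against FO, and 2304 genes of all instead of 4157. With the replicate block, which treats library numbers as pairs, 5 were called in GF against FO. In GF against control, where a match of the numbers was not examined, 4 were called instead of 6. The block ended no call of another contractile gene than ACTG2 and TPM2. With only the 2 groups compared in the fit, all genes called were 2235 instead of 4091 in GF against control and 6591 instead of 2972 in FO against control, and in the latter 6508 without GF 3 and GF 4. Leaving out single libraries gave 5 to 5 contractile genes and 2870 to 4840 genes in GF against FO, 1 to 6 and 1140 to 4729 in GF against control, and 0 to 4 and 796 to 3987 in FO against control. Scaling to total counts moved the median of all genes in GF against FO from -0.02 to 0.12, and the share of calls that were higher from 57.8% to 68.8%. The direction reversed for ACTG1 in GF against FO with total counts (0.008) and for MYH10 in GF against FO with the block (-0.0772), without FO 1 and GF 3 (-0.28) and without GF 3 and GF 4 (-0.73). In FO against control it reversed for DES with total counts (-0.0317) and with the block (-0.49), for MYH11 with the block (-0.0651) and for TAGLN without FO 1 and GF 3 (0.022). Leaving out single libraries reversed ACTA1 (-5.225 to 2.87), DES (-1.01 to 0.0828) and MYH10 (-0.24 to 0.24) in GF against FO and DES in FO against control (-0.37 to 0.15). The cause was not tested. None of these fold changes had passed, and among the reversed ones MYH10 did without GF 3 and GF 4 (adjusted p = 0.0126). CNN1, LMOD1 and ACTG2 rested on few counts, and 2 control libraries limit every comparison with control.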

Other observations

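Some genes that act beside the contractile ones changed in both kinds of graft against the same 2 control libraries. KCNMB1, the smooth muscle subunit of the calcium-activated potassium channel, had 2 and 1 counts in the control, 41 to 57 counts in FO and 50 to 73 in GF. Pooled over libraries this was 64-fold higher in GF (95% counting interval 21.6 to 312) and 50-fold higher in FO (16.9 to 244). TGFB2 had 27.8 and 26.2 CPM in the control and rose by 3.29 in FO (adjusted p = 2.8e-05, edgeR) and by 2.30 in GF (adjusted p = 0.000217). The actin cross-linker ACTN4 had 288 and 346 CPM in the control and fell by 1.56 in FO (adjusted p = 0.000585) and by 1.65 in GF (adjusted p = 0.000392). The calls of KCNMB1, TGFB2 and ACTN4 held in each fit that left out a library. These genes were picked after their values were seen.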
